A study of Mus musculus with 2 samples.

Results

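The nuclear genes of oxidative phosphorylation were followed through the immune cells of 2 mouse mammary tumours. They were taken as every symbol in the gene list that begins with Ndufa, Ndufb, Ndufc, Ndufs or Ndufv and a digit, Sdha to Sdhd, Uqcr, Cox4 to Cox8, or Atp5, without predicted genes. The rule gave 83 genes of 31017 symbols. Of these, 37 carry complex I names, 4 complex II, 8 complex III, 18 complex IV and 16 complex V names. Names do not always match the protein's place: Ndufa4 encodes a complex IV subunit, and Ndufa4l2, Cox7a2l and Atp5s are not core structural subunits. The tumours grew from the lines PyMT-M and PyMT-N, named after the polyoma middle T oncogene, which were injected into the mammary gland and harvested 4 weeks later at 0.7 to 1 cm across. Viable CD45-positive, DAPI-negative cells, that is leukocytes, were sorted and sequenced on the 10x Genomics 5′ platform, which counts each captured transcript once by its unique molecular identifier (UMI). The labels name no treatment, and the strain, age and number of the animals and the meaning of the letters M and N are not given in the sources used here. There was 1 library per line, so no difference below has a replicate check, and none was tested. Brackets hold 95% intervals that cover counting error only, and tumour line, animal and library cannot be told apart.

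Oxidative phosphorylation makes ATP on the inner mitochondrial membrane. Complexes I and II feed in electrons from NADH and succinate, complexes III and IV pass them on to oxygen while protons are pumped out, and complex V, the ATP synthase, lets the protons return through a rotating ring. Most subunits are encoded in the nucleus, while the mitochondrial genome encodes a small set of subunits of complexes I, III, IV and V, so that the 2 genomes must supply parts for the same machines. Neutrophils are known for sparse mitochondria and a metabolism based on glycolysis, whereas macrophages and activated lymphocytes respire more.

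Many of these genes share promoter elements, above all those bound by nuclear respiratory factor 1 (NRF1) and by ETS factors such as GABP. RefSeq promoter windows on GRCm38.p6, from 250 bases before to 50 after a start site, were matched by symbol for 66 of the 83 genes. The NRF1 letters GCATGCGC, read on both strands, stood in 10 of the 66 windows (15.2%) and in 2.80% of all 27025 windows. The ETS letters CCGGAAG stood in 15 windows (22.7%, against 9.12% of all), and the YY1 letters AANATGGCG in 8 (12.1%, against 2.51%). Either of the first 2 motifs was found in 20 of 66 windows, against 11.4% of all windows, and both in 5, against 0.511%. Of the 19407 windows whose symbols are in the gene list, 3.39% held NRF1, 11.1% ETS and 3.14% YY1 letters. Either of the first 2 motifs stood in 13.9% of these windows and both in 0.649%. The members were drawn from that list, so these higher shares are the closer background. The members' windows were also richer in G and C, with a median of 57.2% against 52.7%. The windows printed here, 5′ to 3′ on the minus strand on which all 4 genes lie, belong to the ATP synthase genes at the low and high ends of the neutrophil comparison below (Atp5g2, Atp5l), to the ATP synthase gene that differed most between the tumours' macrophages (Atp5k), and to a complex IV gene whose cell-class difference changed sign between tumours (Cox6a1). Capitals mark NRF1 letters and ETS letters (CTTCCGG on the strand shown). The palindrome GCGCATGCGC holds 2 overlapping NRF1 matches.
Atp5g2, chr15:102670998-102671297: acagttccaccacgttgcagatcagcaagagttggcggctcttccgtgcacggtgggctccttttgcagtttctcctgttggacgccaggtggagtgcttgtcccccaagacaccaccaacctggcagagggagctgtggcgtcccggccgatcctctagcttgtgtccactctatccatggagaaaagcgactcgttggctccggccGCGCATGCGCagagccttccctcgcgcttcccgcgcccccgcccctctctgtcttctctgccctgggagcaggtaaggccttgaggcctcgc
Atp5l, chr9:44920693-44920992: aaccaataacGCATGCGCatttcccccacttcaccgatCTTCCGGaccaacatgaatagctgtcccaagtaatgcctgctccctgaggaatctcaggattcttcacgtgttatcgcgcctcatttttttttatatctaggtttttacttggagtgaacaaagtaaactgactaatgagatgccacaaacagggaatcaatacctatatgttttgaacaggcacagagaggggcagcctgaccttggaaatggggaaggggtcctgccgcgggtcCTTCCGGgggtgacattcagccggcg
Atp5k, chr5:108434350-108434649: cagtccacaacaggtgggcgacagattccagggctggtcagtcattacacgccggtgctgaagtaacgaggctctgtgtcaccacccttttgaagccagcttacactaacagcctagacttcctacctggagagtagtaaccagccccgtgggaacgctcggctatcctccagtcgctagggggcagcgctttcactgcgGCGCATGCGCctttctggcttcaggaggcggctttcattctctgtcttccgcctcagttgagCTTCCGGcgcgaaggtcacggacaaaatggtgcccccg
Cox6a1, chr5:115348909-115349208: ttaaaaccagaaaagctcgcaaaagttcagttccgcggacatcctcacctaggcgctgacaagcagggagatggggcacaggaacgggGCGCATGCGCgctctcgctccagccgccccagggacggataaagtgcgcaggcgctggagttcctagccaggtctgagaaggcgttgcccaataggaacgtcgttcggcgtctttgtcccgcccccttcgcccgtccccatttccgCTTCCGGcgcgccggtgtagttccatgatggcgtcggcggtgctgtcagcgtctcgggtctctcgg
The first NRF1 letter lay 42 bases before the start site in Atp5g2, 50 in Atp5k, 162 in Cox6a1 and 240 in Atp5l. Both ends of the neutrophil comparison thus carry the same letters. Over the measured members with a window, the median log2 ratio of PyMT-N neutrophils over macrophages was -0.56 for the 10 with NRF1 letters and -0.77 for the 54 without, and -0.48 for the 15 with ETS letters and -0.85 for the 49 without. For the YY1 letters it was the other way, -0.87 for the 8 with and -0.68 for the 56 without. The ranges overlapped for all 3 motifs. A match is a description of letters, not a bound site.

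The PyMT-M library held 7476 barcodes with a median of 5069.5 UMIs and the PyMT-N library 5020 with a median of 1955, and 60 barcodes were shared. Filters of 200 genes or more and no more than 10% mitochondrial UMIs left 7357 and 4994 cells. Classes were set from marker genes, none of which is a respiratory chain gene. This gave 47 and 3128 neutrophils (PyMT-M and PyMT-N), 5217 and 569 macrophages, 226 and 312 monocytes, 604 and 184 T cells, 496 and 38 natural killer (NK) cells, and 60 and 67 B cells, with 53 dendritic cells and 158 epithelial or tumour cells in PyMT-M. All 13 neutrophil markers were present in both neutrophil pools, but also in both macrophage pools. These markers, like C1qa, C1qb and C1qc, helped to set the classes, so their levels are no independent check of them. The macrophage-defining C1qa, C1qb and C1qc summed to 157 and 52.5 UMIs per 1000000 (counts per 1000000 UMIs, CPM) in neutrophils, against 28160.5 and 13714 in macrophages. S100a8 and S100a9 summed to 1006 CPM in PyMT-N macrophages and 34.4 in PyMT-M macrophages. PyMT-M B cells held 7361 CPM of the C1q genes, and their values are not free of macrophage RNA. Leaving out neutrophils with a C1q UMI and macrophages with an S100a8 or S100a9 UMI moved the summed log2 ratios given below little: -0.61 against -0.60 for neutrophils over macrophages in PyMT-N, -0.35 against -0.30 in PyMT-M, and 0.59 in both cases for PyMT-N over PyMT-M macrophages. RNA of other genes and classes was not tested.

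The members' share of the UMIs was 2.32% in the PyMT-M library and 2.61% in the PyMT-N library, and each library showed 80 of the 83. Cox7b2, Cox8b and Cox8c had 0 UMIs in both. Summed over members, neutrophils had the lowest level of every class of 20 or more cells in each tumour. In PyMT-M the order ran from epithelial or tumour cells at 41535 (41227 to 41845) CPM through NK cells at 30149 (29968 to 30329.8), T cells at 29739 (29549 to 29929.6), monocytes at 26773 (26509 to 27038), dendritic cells at 23756 (23292 to 24227), macrophages at 20060.3 (20009.8 to 20111) and B cells at 19148 (18514 to 19797) to neutrophils at 16244 (15353 to 17173). In PyMT-N it ran from NK cells at 33269 (32528 to 34024) and monocytes at 32522 (32267 to 32779), whose intervals overlapped, through T cells at 31089.6 (30694 to 31489), macrophages at 30189.9 (29994 to 30386) and B cells at 22010.5 (21263 to 22778) to neutrophils at 19866 (19759 to 19974). Macrophages thus stood just above B cells in PyMT-M but near T cells in PyMT-N. In a pool of cells, fewer expressing cells and less RNA per cell cannot be told apart.

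**Figure D1:**
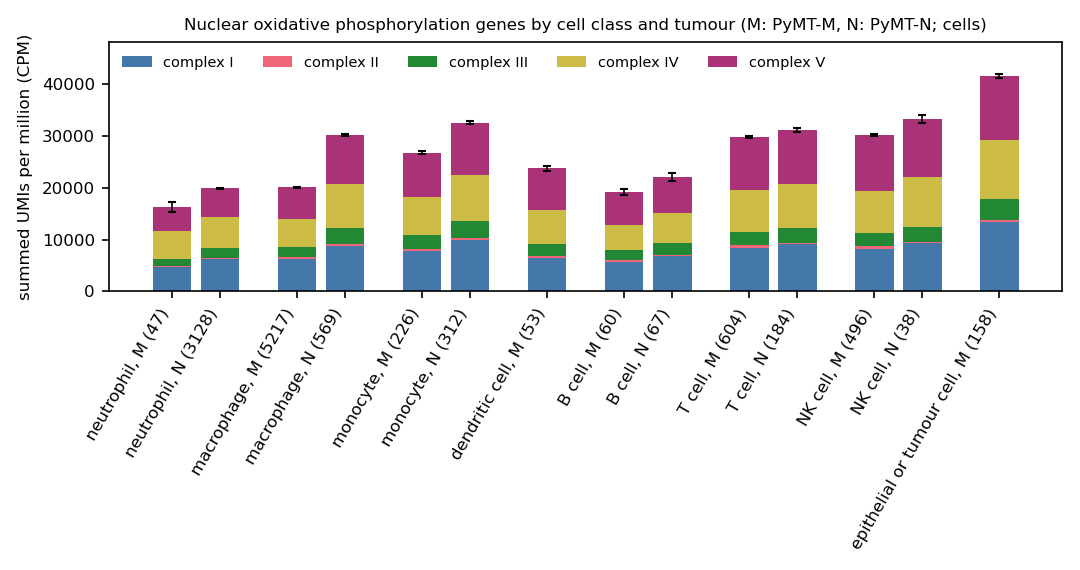
Summed CPM of the 83 genes, stacked by complex, in each cell class of 20 or more cells (number of cells in brackets, M for PyMT-M and N for PyMT-N), with 95% counting intervals on the total. Neutrophils have the lowest bar in each tumour and the 158 epithelial or tumour cells of PyMT-M the highest.

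Single cells spread widely around these sums. With each cell thinned to 1000 UMIs, the median PyMT-N neutrophil held 19 member UMIs (quartiles 12 and 29, 2963 cells, 165 shallower ones left out) and the median macrophage 29 (quartiles 24 and 36, 545 cells, 24 left out). In PyMT-M the medians were 14 (42 neutrophils, 5 left out) and 19 (4997 macrophages, 220 left out). Without thinning, members made up a median of 1.87% of a PyMT-N neutrophil's UMIs and 2.95% of a macrophage's, and 1.32% and 1.92% in PyMT-M. The ranges between quartiles overlapped for the 2 classes in each tumour. T cells were alike in both tumours, at medians of 28 and 29.

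Neutrophils were set against macrophages of the same tumour, first in PyMT-N, where both pools are large. The summed members were lower in neutrophils, at a log2 ratio of -0.60 (-0.62 to -0.59), or 65.8% of the macrophage level. Of 78 members measured, with at least 20 UMIs over both pools, 70 had a ratio below 0, 28 were at least 2-fold lower and 0 at least 2-fold higher. Over all 9910 genes measured 30.3% were at least 2-fold lower, so the members' 35.9% is near the background, while 17.8% of all genes were at least 2-fold higher. The members' median ratio was -0.74, against -0.24 over all genes measured. With ratios set to the median gene instead of to total UMIs, the summed ratio was -0.36 and 17 members were at least 2-fold lower, or 17 of 78 against 25.5% of all genes on that scale. By complex, the summed ratios were -0.50 (-0.52 to -0.48) for complex I, -0.52 (-0.62 to -0.42) for II, -0.74 (-0.78 to -0.70) for III, -0.47 (-0.50 to -0.45) for IV and -0.80 (-0.83 to -0.78) for V. By these sums complexes V and III were furthest down, and the intervals of complexes I, II and IV overlapped. The sums follow gene names, so Ndufa4, which encodes a complex IV subunit, counts in complex I. The order and overlap of complexes I and IV depend on where this gene is counted. The median members stood at -0.62, -0.44, -0.81, -0.68 and -0.95 for complexes I to V.

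In PyMT-M, with 47 neutrophils, the summed ratio was -0.30 (-0.39 to -0.22), or 81.0%. Of 79 members measured, 18 were at least 2-fold lower and 0 higher, while 5 gave no direction because no UMI was seen in neutrophils. All genes gave 11.3% lower and 14.4% higher. That background counts many genes too scarce in 47 cells to reach 2-fold: with at least 3 UMIs expected in the smaller pool, a limit chosen after seeing the data, it was 18 of 73 members against 32.9% of genes. The complexes stood at -0.42 (-0.58 to -0.27) for complex I, -0.46 (-1.07 to 0.09) for II, -0.57 (-0.87 to -0.28) for III, 0.04 (-0.10 to 0.17) for IV and -0.45 (-0.60 to -0.30) for V. Complex IV was level in this tumour, with an interval that takes in 0, and stood at -0.13 when ratios were set to the median gene. Without the neutrophils that held a Siglecf UMI the summed ratio was -0.53 and 29 of 79 members were at least 2-fold lower, against 9.90% of all genes, a share again lowered by genes too scarce in the 38 cells left.

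**Figure D2:**
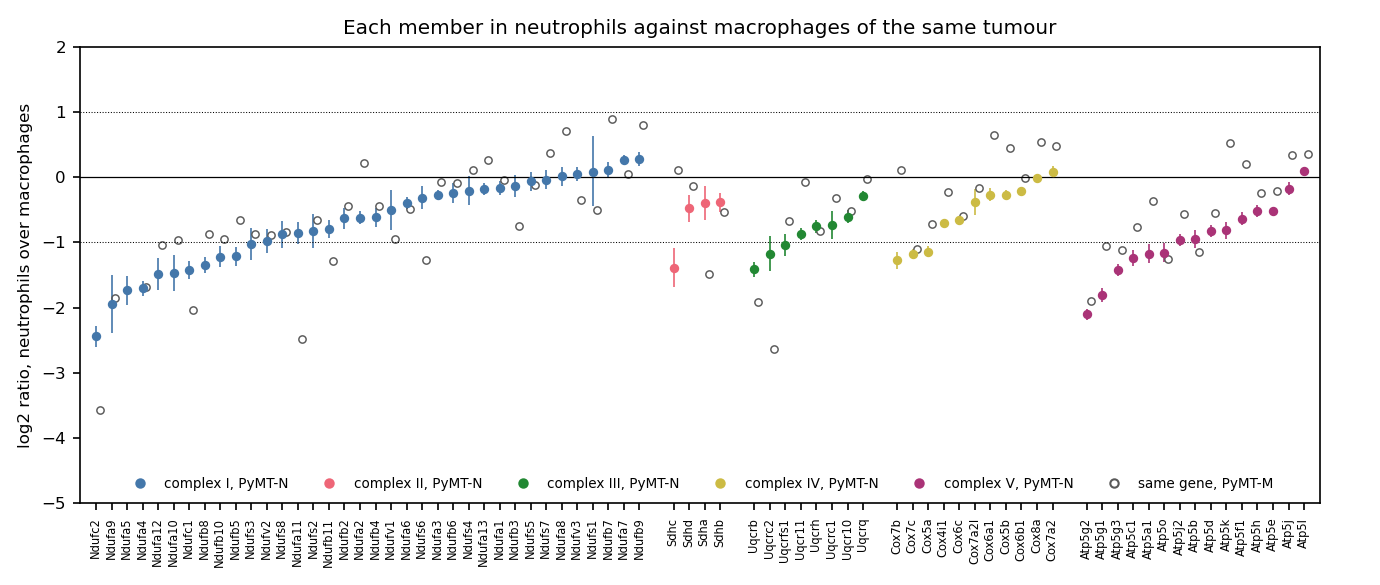
Log2 ratio of CPM in neutrophils over macrophages for each member with at least 100 UMIs over both PyMT-N pools, ordered within each complex by the PyMT-N ratio, with 95% counting intervals (filled, PyMT-N) and the PyMT-M value (open, no interval drawn). Dotted lines mark 2-fold. The 3 c-ring genes Atp5g1, Atp5g2 and Atp5g3 and Ndufc2 are low in both tumours, and no PyMT-N value reaches 2-fold higher.

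Within complex I the spread between subunits was wider than that between complexes. Ndufc2, an accessory subunit of the membrane arm, was at 71.8 (65.5 to 78.6) CPM in PyMT-N neutrophils and 390.0 (368 to 413) in macrophages, and at 39.2 (8.09 to 115) and 464 (457 to 472) in PyMT-M. It was the lowest member of complex I in both tumours, with log2 ratios of -2.44 (-2.60 to -2.29) and -3.57 (-5.84 to -2.02), the latter from 3 neutrophil UMIs. Ndufb9 and Ndufa7, accessory subunits too, went the other way in PyMT-N. Ndufb9 was at 381 (366 to 396) CPM in neutrophils and 313 (293 to 333) in macrophages, a log2 ratio of 0.29 (0.18 to 0.39), and at 0.80 (0.16 to 1.38) in PyMT-M. Ndufa7 was at 643 (624 to 663) and 535 (509 to 562) CPM in PyMT-N, a ratio of 0.27 (0.18 to 0.35), while its PyMT-M ratio of 0.06 (-0.56 to 0.61) takes in 0. Ndufb7 had the highest PyMT-M ratio of complex I, 0.89 (0.21 to 1.49), beside 0.11 (-0.01 to 0.23) in PyMT-N. The 7 nuclear core subunits, which form the arm that takes electrons from NADH, summed to -0.59 (-0.67 to -0.51) in PyMT-N and the 28 measured accessory subunits to -0.44 (-0.46 to -0.41), so both groups were lower.

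Complex II oxidises succinate and is also an enzyme of the citric acid cycle. Sdhb, its iron-sulfur subunit, was at 157 (148 to 167) CPM in PyMT-N neutrophils and 205 (189 to 222) in macrophages, a log2 ratio of -0.38 (-0.53 to -0.24), the highest of the complex. Sdhc, a membrane anchor, was at 25.9 and 67.7 CPM, the lowest at -1.39 (-1.69 to -1.09). In PyMT-M 26 neutrophil UMIs of the complex did not resolve the subunits: Sdha, the flavoprotein, stood lowest at -1.49 (-4.53 to 0.37) and Sdhc highest at 0.11 (-1.77 to 1.47), both with intervals that take in 0. All 8 complex III genes had PyMT-N ratios below 0. Uqcrb, a small subunit beside the quinone site, was lowest at -1.41 (-1.52 to -1.30), from 178 and 472 CPM, and at -1.92 (-3.37 to -0.80) in PyMT-M. Uqcrc2, a core protein, was at -1.17 (-1.44 to -0.90) in PyMT-N and at -2.64 (-7.94 to -0.16) in PyMT-M, the latter from 1 neutrophil UMI. Uqcrq was highest in both, at -0.28 (-0.37 to -0.20) and -0.02 (-0.63 to 0.53).

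In complex IV the abundant subunit Cox8a was as high in PyMT-N neutrophils, at 1584 (1554 to 1615) CPM, as in macrophages, at 1605 (1559.8 to 1650.3), a log2 ratio of -0.02 (-0.07 to 0.03). In PyMT-M it was at 1530.2 (1266 to 1834) and 1053 (1042 to 1065) CPM, a ratio of 0.54 (0.26 to 0.80). The neutrophil levels of the 2 tumours were thus close, and the macrophage levels were not. Cox7a2 had the highest PyMT-N ratio, 0.08 (-0.0017 to 0.17), and Cox7b, another small subunit, the lowest among members with 100 UMIs, -1.27 (-1.40 to -1.14). Cox7b was not low in PyMT-M, at 0.12 (-0.69 to 0.82), where Cox7c was lowest, at -1.10 (-1.85 to -0.44) beside -1.18 (-1.25 to -1.11) in PyMT-N. Cox6a1 had opposite signs, -0.27 (-0.37 to -0.17) in PyMT-N and 0.65 (0.11 to 1.14) in PyMT-M, and so did Cox5b. The difference between the tumours in these ratios was not tested.

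In complex V the lowest ratios were those of the c-ring, the rotor through which protons pass. Its subunit c is made from 3 genes with the same mature protein, Atp5g1, Atp5g2 and Atp5g3. Atp5g2 was at 286 (273 to 299) CPM in PyMT-N neutrophils and 1227 (1188 to 1267) in macrophages, and at 209 (119.6 to 339.8) and 778 (768 to 788) in PyMT-M, the lowest ratio of complex V in both tumours at -2.10 (-2.18 to -2.02) and -1.89 (-2.70 to -1.19). Atp5g1 stood at -1.81 (-1.92 to -1.70) and -1.06 (-1.97 to -0.29) and Atp5g3 at -1.42 (-1.51 to -1.34) and -1.12 (-1.81 to -0.50). All 3 were more than 2-fold lower in each tumour. Their summed level was 751 CPM in PyMT-N neutrophils and 2617 in macrophages, a ratio of -1.80 (-1.85 to -1.75), and 654 and 1728 CPM in PyMT-M, a ratio of -1.40. The 5 subunits of the catalytic F1 head summed to -0.71 (-0.75 to -0.67) and -0.46 (-0.73 to -0.20). The 7 other subunits of the stalk and membrane part summed to -0.42 (-0.45 to -0.38) and 0.02 (-0.20 to 0.23), so that in PyMT-M they were level. Among these, Atp5l, subunit g of the dimer interface, was highest in PyMT-N at 0.09 (0.03 to 0.16), but stood at -0.02 with mitochondrial, ribosomal, S100a8 and S100a9 UMIs left out of the totals. Atp5k, subunit e of the same interface, was highest in PyMT-M at 0.53 (-0.60 to 1.46), beside -0.81 (-0.94 to -0.68) in PyMT-N. Atp5e, the epsilon subunit, held the most UMIs of the complex, 1334 and 1907 CPM in PyMT-N neutrophils and macrophages, a ratio of -0.52 (-0.56 to -0.47).

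The partner genes of the mitochondrial genome were lower in neutrophils by a larger factor than the nuclear genes. The 13 mitochondrially encoded subunits summed to 10047 (9971 to 10124) CPM in PyMT-N neutrophils and 28912 (28721 to 29104) in macrophages, with a log2 ratio of the sums of -1.52 (-1.54 to -1.51). In PyMT-N 13 of 13 were past 2-fold lower, against 30.3% of all genes. In PyMT-M they summed to 9953 (9258 to 10686) and 25485 (25428 to 25542) CPM, a ratio of -1.36 (-1.46 to -1.25). There 12 of 13 were past 2-fold lower, against 11.3% of all genes, or 32.9% with at least 3 UMIs expected in the smaller pool. The neutrophil level was the same within counting error in the 2 tumours. These values exclude cells above 10% mitochondrial UMIs, and their dependence on cell handling was not tested.

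Carriers that link the chain to the rest of the cell were low as well, with 5 of 6 at least 2-fold lower in each tumour and summed ratios of -1.47 (-1.51 to -1.43) in PyMT-N and -1.24 (-1.51 to -0.98) in PyMT-M. Slc25a4, which exchanges ADP for ATP, was at 2.13 CPM in PyMT-N neutrophils and 171 in macrophages (log2 ratio -6.33, -7.21 to -5.57). Cycs, cytochrome c, was the carrier gene that did not reach 2-fold, at -0.61 (-0.73 to -0.49) and -0.90 (-2.03 to 0.02). Of 13 citric acid cycle genes in PyMT-N 3 were at least 2-fold lower and 0 higher, and Mdh2, malate dehydrogenase, was higher in neutrophils, at 0.75 (0.60 to 0.89) and, in PyMT-M, 1.82 (1.35 to 2.26). In PyMT-N assembly factors split 16 lower and 2 higher of 42, mitochondrial ribosomal proteins 33 and 1 of 78, and outer membrane and import genes 5 and 0 of 14. The lower shares were 38.1%, 42.3% and 35.7%, against 30.3% of all genes, and 17.8% of all genes were higher. Summed ratios were 0.07 (0.02 to 0.11), -0.18 (-0.20 to -0.16) and -0.40 (-0.44 to -0.36), so the assembly factors were not lower in sum. In PyMT-M the same lists gave 5 lower and 5 higher of 43, 19 and 3 of 78, and 2 and 0 of 14. All genes gave 11.3% lower and 14.4% higher there. The 11.3% counts many genes too scarce in 47 cells to reach 2-fold, and was 32.9% with at least 3 UMIs expected in the smaller pool. The lists' summed ratios in PyMT-M were -0.02 (-0.30 to 0.25), 0.05 (-0.09 to 0.19) and -0.26 (-0.53 to -0.004). No direction could be given there for 18 of the 43 assembly factors and 12 of the 78 ribosomal proteins. Regulators went both ways in PyMT-N, 2 lower and 3 higher of 13, and in PyMT-M gave 0 lower and 4 higher of 14, with 7 undetermined. Hif1a, the oxygen-regulated transcription factor, was at 194 and 58.8 CPM in PyMT-N neutrophils and macrophages (log2 ratio 1.72, 1.49 to 1.95) and at 1.76 (0.76 to 2.61) in PyMT-M. Higd1a, a hypoxia-induced protein of the respiratory chain, was at 1.40 (1.28 to 1.53) in PyMT-N and 0.36 (-0.70 to 1.24) in PyMT-M.

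Ndufa4 has a paralogue, AA467197 (also Nmes1), on chromosome 2 at 122637887 to 122641076 of GRCm38.p6, whose protein is known to take the place of Ndufa4 in complex IV in inflamed cells and whose transcript also carries the microRNA Mir147. Ndufa4 was at 131 (62.7 to 241) CPM in PyMT-M neutrophils and 157 (148 to 167) in PyMT-N neutrophils, against 422 (414 to 429) and 510.2 (485 to 536) in macrophages and 751 and 816 in T cells. Its log2 ratio of neutrophils over macrophages was -1.69 (-2.75 to -0.81) in PyMT-M and -1.70 (-1.81 to -1.58) in PyMT-N. AA467197 showed the reverse order, at 183 (100.1 to 307) and 189.8 (179 to 201) CPM in neutrophils against 6.53 (5.65 to 7.51) and 22.8 (17.7 to 28.8) in macrophages. Its ratios were 4.81 (3.91 to 5.59) and 3.06 (2.71 to 3.43), and every other class shown stood at or below 40.5 CPM. Neutrophils were thus the 1 class in each library with more UMIs of AA467197 than of Ndufa4, 14 against 10 in PyMT-M, where the counting intervals overlap, and 1247 against 1032 in PyMT-N. UMIs count molecules, not length, but how well each transcript is captured is not known, so the 2 genes are compared by their order across classes. Ndufa4l2, another paralogue, had 4 UMIs in PyMT-M macrophages and 0 in both neutrophil pools.

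**Figure D3:**
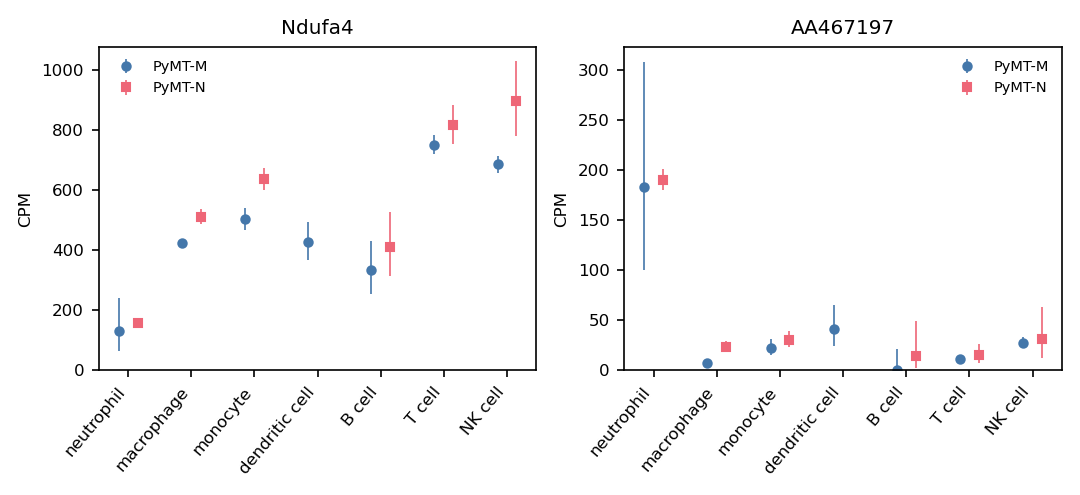
CPM of Ndufa4 (left) and its paralogue AA467197 (right) by cell class in PyMT-M (circles) and PyMT-N (squares), with 95% counting intervals. The scales of the 2 panels differ. Neutrophils have the lowest Ndufa4 and the highest AA467197 level in both tumours.

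Tissue isoforms of complex IV had few UMIs. The muscle-type Cox6a2 and testis-type Cox6b2 stayed under 10 CPM in macrophages of both tumours, against 275 and 424 for Cox6a1 and 503 and 787 for Cox6b1. Cox6a2 reached 23.8 CPM in PyMT-M dendritic cells (10 UMIs) and 23.1 in PyMT-M monocytes (34 UMIs), and had 0 UMIs in PyMT-N monocytes, which is at least 14.8-fold lower against a floor of 3 UMIs. Cox4i2, the isoform of Cox4i1 known from hypoxic and lung cells, was at 16.5 (12.3 to 21.8) CPM in PyMT-N macrophages and 2.59 (2.04 to 3.23) in PyMT-M macrophages, beside 1215 and 919 for Cox4i1. PyMT-N neutrophils had 1 Cox4i2 UMI and PyMT-M neutrophils 0 among 47 cells, a depth at which such a level cannot be seen. Cox7a1, the muscle isoform of Cox7a2, was at 19.5 (14.8 to 25.1) and 3.68 (3.03 to 4.43) CPM in PyMT-N and PyMT-M macrophages. Cox7a2l, which ties complexes III and IV together, ranged from 74.0 CPM in PyMT-N NK cells to 182 in PyMT-N B cells, with neutrophils at 91.6 (36.8 to 189) and 86.5 (79.5 to 93.9) near macrophages at 103 and 113.

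Between tumours, macrophages of PyMT-N held more of the members than those of PyMT-M. The summed log2 ratio was 0.59 (0.58 to 0.60). Of 79 members measured, 66 were above 0, with 59 intervals wholly above, and 8 were at least 2-fold higher and 0 lower. Over all genes 5.06% were at least 2-fold higher and 12.4% lower, and the members' 10.1% rests on 8 genes. The members' median was 0.43, against -0.19 over all genes. Ratios were 0.50 (0.48 to 0.52) for complex I, 0.69 (0.66 to 0.72) for III, 0.66 (0.64 to 0.68) for IV and 0.62 (0.60 to 0.64) for V. Complex II, at -0.07 (-0.15 to 0.02), was level, and stood at 0.12 when ratios were set to the median gene, a scale that put 14 of 79 members past 2-fold higher, against 6.999% of all genes. Cytosolic ribosomal protein genes moved with them, from 106786 to 204165 CPM, and with mitochondrial, ribosomal, S100a8 and S100a9 UMIs left out of the totals the members' ratio was 0.77, with 14 of 79 past 2-fold higher against 6.94% of all genes. The C1q genes went from 28160.5 to 13714 CPM, and their part in the result was not tested. The neutrophil comparisons above use these same macrophage pools, so the 2 sets of ratios are not independent.

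The difference was uneven among subunits of the same complex. Atp5k went from 81.5 (78.3 to 84.8) CPM in PyMT-M to 292 (273 to 311) in PyMT-N macrophages (log2 ratio 1.84, 1.73 to 1.95), and Atp5e from 889.9 to 1907 (log2 ratio 1.10, 1.06 to 1.14). The large catalytic subunits Atp5a1 and Atp5b, which form the head, were level at -0.05 (-0.16 to 0.06) and 0.03 (-0.08 to 0.13). In complex I the accessory subunit Ndufa3 was highest at 1.29 (1.22 to 1.37), from 261 to 639 CPM, and the core subunit Ndufs1 lowest at -0.35 (-0.82 to 0.10). Summed accessory subunits were at 0.57 (0.55 to 0.59) and core subunits at 0.04 (-0.03 to 0.11). In complex III, Uqcr11 was at 1.06 (0.98 to 1.13) and the core protein Uqcrc1 at -0.32 (-0.49 to -0.15), lower in PyMT-N. In complex II, Sdhc was at 0.48 (0.26 to 0.69) and Sdhb at -0.26 (-0.38 to -0.14). Complex IV was led by Cox4i2 at 2.67 (2.13 to 3.21) and Cox7a1 at 2.40 (1.92 to 2.87), both scarce, and among abundant genes by Cox7c at 1.16 (1.11 to 1.22), while Cox6b2 was lowest at -0.10 (-0.88 to 0.60).

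**Figure D4:**
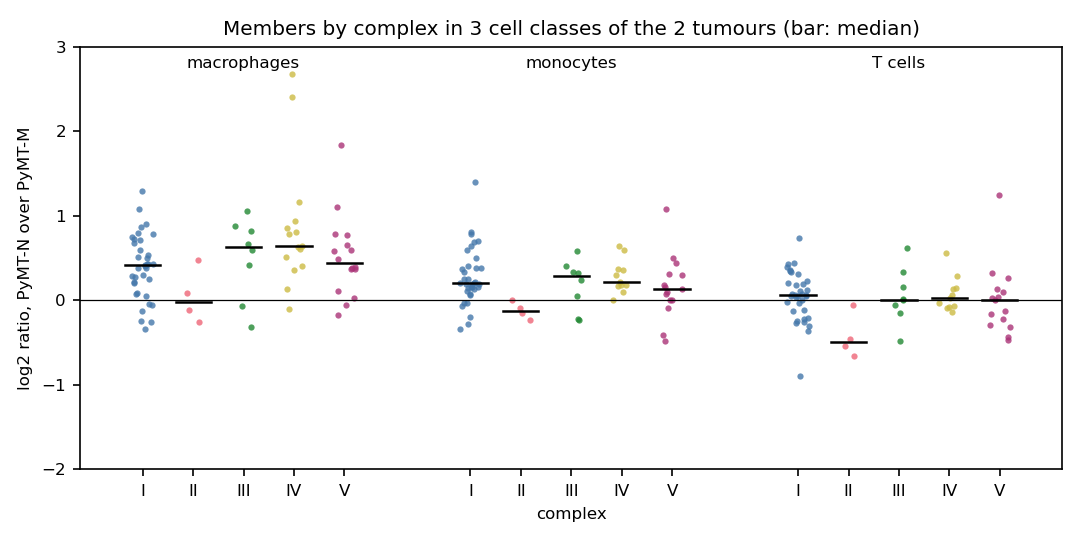
Log2 ratio of CPM in PyMT-N over PyMT-M for members with at least 100 UMIs over both pools, by complex, in macrophages, monocytes and T cells. Each point is a gene and each bar the median. In macrophages the medians of complexes I, III, IV and V lie above 0 and that of complex II near 0, and in T cells complex II lies below 0.

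Members with short annotated transcripts tended to stand higher in PyMT-N. Length here is the median over the annotated transcripts of a gene, and the transcripts expressed in these cells may be longer or shorter. That median was 651 bases for Ndufs1, 2413 for Ndufb2 and 2675.5 for Atp5g1. Over 79 members in macrophages, Spearman's rho between the median transcript length of the gene and the log2 ratio was -0.52 (Pearson's r with log length -0.42), against a rho of -0.05 over 9431 other genes. In neutrophils it was -0.44 over 73 members and in T cells -0.50 over 73, against -0.06 and -0.05. These are descriptions across genes that share libraries and are not independent. In macrophages the median ratio was 0.65 for the 29 members under 600 bases, 0.42 for the 31 from 600 to under 1000, 0.05 for the 16 from 1000 to under 2000 and 0.78 for the 3 longer ones, and ribosomal protein genes under 600 bases had 0.96. The part of length in the differences between subunits was not tested.

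The other classes moved less, and not all alike. In monocytes the sums gave a ratio of 0.28 (0.26 to 0.30), and 3 of 77 members were past 2-fold higher (3.55% of all genes) and 1 lower (5.72%). Atp5k and Ndufa3 again led complexes V and I at 1.09 (0.85 to 1.32) and 1.40 (1.24 to 1.56). Neutrophils had a ratio of 0.29 (0.21 to 0.37), with 10 of 74 members higher (6.71%), 1 lower (14.9%) and 12 intervals wholly above 0. With at least 3 UMIs expected in the smaller pool the count was 9 of 67 members against 13.4% of all genes, so the members' share was that of the background. The count was 16 when scaled to the median gene (9.91% of all genes), 18 per cell (12.1%) and 6 with thinned cells (6.08%). The 47 PyMT-M cells leave most single genes unresolved there, as for Ndufa11, the highest of complex I, at 1.88 (0.02 to 4.93) from 2 PyMT-M UMIs. Those with intervals above 0 include Cox7c at 1.09 (0.42 to 1.84) and Atp5e at 0.79 (0.42 to 1.18). NK cells had a ratio of 0.14 (0.11 to 0.18), with 1 of 76 members past 2-fold higher (7.71% of all genes) and 3 lower (14.2%). B cells had 0.20 (0.13 to 0.27), with 2 of 70 higher (5.53%) and 1 lower (14.1%). Atp5k was among the members past 2-fold in both, at 1.09 (0.69 to 1.48) in NK cells and 1.34 (0.29 to 2.46) in B cells, as it was in macrophages and monocytes. All these ratios share the same 2 libraries.

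T cells were nearly level between tumours, at 0.06 (0.04 to 0.08). Of 75 members measured, 1 was past 2-fold higher (5.08% of all genes) and 0 lower (11.5%). Counted as UMIs per cell in place of CPM, the T cell ratio was -0.28. The gene past 2-fold was Atp5k, at 135 (123 to 149) CPM in PyMT-M and 320.4 (281 to 363) in PyMT-N (log2 ratio 1.24, 1.01 to 1.47). Ndufa3 was at 0.73 (0.58 to 0.88), Uqcr11 at 0.62 (0.42 to 0.82) and Cox7c at 0.56 (0.45 to 0.67), each the highest of its complex among members with 100 UMIs. Complex II was lower in PyMT-N T cells, at -0.53 (-0.73 to -0.34), with Sdhb lowest at -0.66 (-0.94 to -0.38) and Sdhc level at -0.05 (-0.67 to 0.52); the complex stayed below 0 under each of the 3 other scales tried. Ndufv1, a core subunit of complex I that binds NADH, was the lowest member of complex I, at 63.9 and 34.3 CPM (log2 ratio -0.90, -1.55 to -0.31). Atp5c1, the rotor shaft of the ATP synthase, was lowest in complex V, at -0.47 (-0.65 to -0.30).

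Within the 3128 PyMT-N neutrophils the members varied with marker genes of known neutrophil states. Cells were divided by UMIs of a marker set, at 0, 1 to 2, and 3 or more, which are ranges and not cell types, since a UMI depends on depth as well. Cells with 1 or 2 UMIs lie near the limit. Siglecf, a lectin gene known from a tumour-associated state of neutrophils, went with high levels. The summed members were at 18062 (17947 to 18177) CPM in 2558 cells with 0 UMIs, 26764 (26469 to 27061) in 523 with 1 to 2 and 32031 (31007 to 33079.6) in 47 with 3 or more, the last above the summed level of PyMT-N macrophages. The median depths of the 3 ranges were 1739, 1834 and 2188 UMIs, and the part of depth was not tested. Between the outer ranges 73 of 74 members were above 0, with a median log2 ratio of 0.90 against 0.41 over all genes, and 32 were at least 2-fold higher (20.5% of all genes) and 0 lower (6.15%). These shares of all genes take in many genes too scarce in the 47 cells to be resolved. The share among genes with more UMIs there was not counted, so the size of the members' excess is uncertain. The largest ratio among members with 100 UMIs was that of Ndufa12, an accessory subunit of complex I, at 2.04 (1.14 to 2.83). Atp5g1 was at 134.5 CPM with 0 Siglecf UMIs and 441 with 3 or more, a ratio of 1.71 (1.27 to 2.12). S100a8 and S100a9 went down, from 101709 to 49716 CPM, and cytosolic ribosomal protein genes up, from 63287 to 92822. Their part in the result was not tested. Mitochondrially encoded genes went the way of the members, from 9313 to 15834 CPM. The C1q genes did not, from 54.2 to 34.6 CPM.

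Granule genes of immature neutrophils (Ngp, Camp, Ltf and others) went with low levels. The summed members were at 20813 (20695 to 20931) CPM in 2914 cells with 0 UMIs, 14621 (14267 to 14981) in 144 with 1 to 2 and 11530.4 (11189 to 11879.8) in 70 with 3 or more. Depth differed strongly between these ranges, with medians of 1715.5, 2612 and 5360 UMIs, and its part was not tested. All 74 measured members were below 0 between the outer ranges, but the 30 past 2-fold lower are near the background of 37.4% (0 were higher, against 3.92%), and the median of -0.91 is close to that of all genes, -0.79. S100a8 and S100a9 took 268910.0 CPM of the 70 cells, against 79135 of those with 0 UMIs, and their part in the result was not tested. Interferon-stimulated genes went with lower levels, from 22033 (21871 to 22195) CPM in 1763 cells to 15764 (15563 to 15968) in 517, with 72 of 74 members below 0 and 1 at least 2-fold lower (10.7% of all genes) and 0 higher (2.41%). The median was -0.51, against -0.33 over all genes. Here S100a8 and S100a9 went from 76135 to 129551 CPM, and the median depth from 1629 to 2290 UMIs. Hypoxia genes (Hilpda, Vegfa, Ndrg1, Egln3) also went with lower levels, from 21917 (21730.1 to 22106) CPM in 1284 cells to 17102 (16947 to 17258) in 1136, with 71 of 74 members below 0 and 0 past 2-fold lower (6.96% of all genes) or higher (5.44%). The median was -0.41, against -0.19 over all genes. S100a8 and S100a9 were lower in these cells, at 80461 against 108581 CPM. Their median depth was 1953 against 1633.5 UMIs. The part of depth was not tested for the interferon and hypoxia sets either. Ndufv3, a small complex I subunit, was the highest of the 3 members above 0, at 470.3 CPM in the 1136 cells and 298 in the 1284 (log2 ratio 0.66, 0.53 to 0.79).

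**Figure D5:**
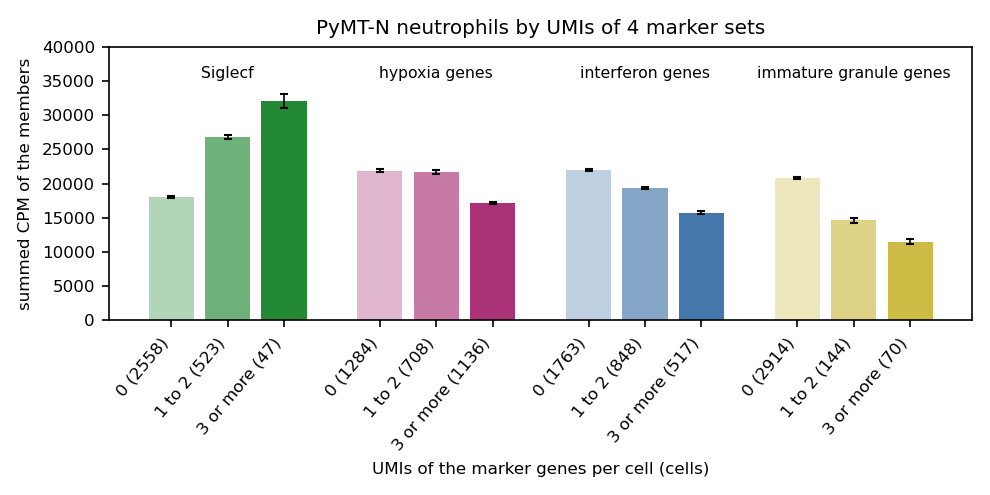
Summed CPM of the members in PyMT-N neutrophils by the number of UMIs per cell of Siglecf, hypoxia genes, interferon-stimulated genes and immature granule genes (number of cells in brackets), with 95% counting intervals. The level is highest at 3 or more Siglecf UMIs and, for each of the other 3 sets, lowest at 3 or more UMIs.

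AA467197 did not follow the members in the Siglecf range. It was at 189.7 CPM with 0, 193.7 with 1 to 2 and 156 with 3 or more Siglecf UMIs. The last value rests on 18 UMIs. The log2 ratio between the outer ranges, -0.28 (-1.05 to 0.38), takes in 0, so no fall is resolved. Ndufa4 went from 138 to 320.1 CPM between the same ranges. In the interferon range AA467197 went with the members, from 201 to 149 CPM, while Ndufa4 went from 175 to 125. In PyMT-N macrophages with 3 or more hypoxia UMIs (88 cells) Ndufa4 was at 307 CPM, against 559 in 391 cells with 0 and 569 in 90 cells with 1 to 2, while the summed members differed less, at 28134 (27715 to 28558) against 30920.2 (30668 to 31174). PyMT-M macrophages did not show this: Ndufa4 was at 413 CPM in 38 cells with 3 or more and 419 in 4736 with 0, and the summed members were higher, at 21414 (20985 to 21851) against 19936 (19882 to 19990.5).

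Cycling cells held more of the members among macrophages and T cells of both tumours and NK cells of PyMT-M. Macrophages with 3 or more UMIs of cycling genes were at 23920.0 (23784 to 24057) CPM in PyMT-M and 34473 (34073 to 34877) in PyMT-N, against 18947 (18885 to 19009) and 27900.1 (27645 to 28157) with 0. T cells were at 33902 (33565 to 34242) and 35508 (34879.9 to 36145), against 27044 (26785 to 27306) and 27502 (26952 to 28059.7). PyMT-M NK cells were at 33227.5 against 28345.5. Cells with 3 or more cycling UMIs were also deeper. Their median depths were 7971 against 3507.5 UMIs in PyMT-M T cells and 7309 against 2480 in PyMT-N T cells. In macrophages they were 7428.5 against 4608 in PyMT-M and 6301 against 4139 in PyMT-N. The part of depth was not tested. Over macrophages with no cycling UMI alone the ratio between tumours was 0.56, close to that over all macrophages.

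Over 12 class pools of 50 or more cells, the gene whose level was most like that of the summed members, of 7757 with 500 or more UMIs, was Polr2i, a small subunit of RNA polymerase II, at a Pearson's r of 0.91. Next came Mrps14, a mitochondrial ribosomal protein, at 0.90, Ostc at 0.89, Rps19bp1 at 0.88 and Eif1ax, a translation initiation factor, at 0.88. The pools come from 2 libraries and share their depth, so this describes these pools only.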

How the data were processed

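The authors deposited 1 sparse table of whole-number UMI counts for each library, which version 3.1.0 of the counting software wrote per the file headers. Cell Ranger, Seurat and build mm10 are named in the submitters' processing notes, and versions and the annotation release are not given in the sources used here. Reads of genes with near-identical copies may have been split or dropped in that counting. The shallowest barcodes held 501 UMIs (PyMT-M) and 500 (PyMT-N) of totals of 43977988 and 14907736. Atp5o carried 2 identifiers, which were summed.

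A class marker counted as present in a cell at 10% or more of the 99th percentile of its counts per 10000. A class needed 3 present markers and a share of present markers 10 percentage points above every other class. This rule was chosen after the data were seen. UMIs were summed per class and library, given as CPM with exact Poisson intervals, and compared as log2 ratios with exact conditional binomial intervals, at 95%. A pool with 0 UMIs was set to a floor of 3. Called means 2-fold among genes with 20 UMIs over both pools. No test was possible with 1 library per line, and PCR and sampling of cells are outside the intervals. Cells were scored for doublets with Scrublet through scanpy 1.11.5, whose automatic threshold marked 0 cells in either library and so did not work. The main values keep all cells. Python 3.11.15, numpy 2.4.6, scipy 1.17.1, pandas 2.3.3 and matplotlib 3.10.9 were used. Steps were tested on simulated data.

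The genes named were, in each comparison and complex, the member with the most UMIs and those with the highest and lowest ratio among members with 100 UMIs, the isoform and replacement pairs, and the 5 genes most like the members. Other genes named, such as Cox5b, Ndufv3, Atp5a1 and Atp5b in macrophages and single genes of the other lists, were chosen after their values were seen. The members and lists were chosen with earlier results of these data known. Cells under a marker minimum and classes under 20 cells were left out of comparisons.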

Additional observations from a re-analysis of the deposited data

Results flagged for a closer look

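For 7 members the log2 ratio had opposite signs in 2 groups, each with a counting interval clear of 0 on the CPM scale, and the difference itself was not tested, since each side is 1 library. In neutrophils against macrophages, Cox5b, a complex IV subunit, was at -0.27 in PyMT-N and 0.45 in PyMT-M, and Cox6a1 at -0.27 and 0.65. With median-of-ratios scaling these were -0.02 and 0.29 for Cox5b and -0.03 and 0.49 for Cox6a1, all with intervals that take in 0, and per cell both were below 0 in PyMT-M too, at -1.38 and -1.18. In PyMT-N against PyMT-M, macrophages and T cells differed in sign for Atp5c1 (0.11 and -0.47), Atp5d (0.39 and -0.32), Atp5j (0.37 and -0.22), Cox4i1 (0.40 and -0.13) and Ndufa13 (0.22 and -0.30). With median-of-ratios scaling the T cell values of Atp5j (-0.10) and Cox4i1 (-0.01) have intervals that take in 0, and per cell Atp5c1 was at -0.01 in macrophages. Of these genes, Atp5c1, Atp5d and Atp5j belong to the ATP synthase.

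Cells with too few markers for a class entered no comparison. Their summed members stood at 30117 CPM in PyMT-M (228 cells) and 30405 CPM in PyMT-N (502 cells), near the level of T cells, with S100a8 and S100a9 at 3526 CPM and the C1q genes at 295 CPM in PyMT-N.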

How the results depend on the processing

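Over 98 alternative values under 12 settings, 60 stayed within the counting interval or 1.5 times the count, 37 moved and 1 reversed. Of the summed ratios only 19 of 44 stayed within the counting interval, while 41 of 54 counts stayed within 1.5 times the count. With UMIs per cell in place of CPM the T cell ratio between tumours reversed to -0.28, and the macrophage and neutrophil ratios between tumours were 0.47 and 0.66, with 0, 5 and 18 members at least 2-fold higher for T cells, macrophages and neutrophils (2.63%, 4.23% and 12.1% of all genes). On that scale neutrophils against macrophages stood at -1.95 (PyMT-N) and -2.13 (PyMT-M), and 78 and 73 members were past 2-fold lower (67.8% and 44.4% of all genes), as this scale moved every PyMT-N ratio by -1.34. With median-of-ratios scaling, which moved every PyMT-N neutrophil to macrophage ratio up by 0.24, these were -0.36 (17 members, 25.5% of all genes) and -0.47, and between tumours 0.78 for macrophages (14 members, 6.999%), 0.54 for neutrophils (16, 9.91%) and 0.18 for T cells. Leaving mitochondrial, ribosomal, S100a8 and S100a9 UMIs out of the totals gave -0.72 in PyMT-N, 0.77 for macrophages (14 members, 6.94%) and 0.18 for T cells. The stricter class rule gave -0.65 in PyMT-N and 0.0362 for T cells. Thinned cells gave -0.51, 0.60 for macrophages, 0.0015 for T cells and 6 members for neutrophils between tumours (6.08%). Without the 447 and 202 highest doublet scores the values were -0.62 and, for macrophages, 0.62. A minimum of 1 UMI gave 2 members for T cells (11.5%). Alternatives added after seeing the data gave, for neutrophils with no Siglecf UMI, -0.74 in PyMT-N, -0.53 in PyMT-M (29 members, 9.90%) and 0.38 between tumours, and, for cells with no cycling UMI, 0.56 for macrophages and 0.0242 for T cells (0 members, 6.25%). Complex II in macrophages changed sign with the scale, from -0.07 to 0.12 with median-of-ratios scaling. The depth of the 47 PyMT-M neutrophils limits most single genes there. No paired analysis was possible because each line has 1 library with no replicate number.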

Other observations

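In the mitochondrial genome mt-Atp8, a subunit of the ATP synthase, stood apart from the other 12 genes between tumours, at 723 (713 to 733) CPM in PyMT-M and 103 (91.6 to 115) in PyMT-N macrophages (log2 ratio -2.82, -2.98 to -2.65), at -2.84 (-3.18 to -2.52) in T cells and at -2.61 (-3.31 to -1.80) in neutrophils. The overlapping mt-Atp6 went the other way in macrophages, at 0.55 (0.53 to 0.57), and the sources used here do not say how reads of the overlap were counted.

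Among partner genes outside the members, Tomm7, of the outer membrane import complex, was higher in PyMT-N macrophages at 1.34 (1.27 to 1.41). The highest ratio of its list was 2.18. Pdk1, which holds pyruvate back from the citric acid cycle, at 1.36 (1.01 to 1.70) and Higd1a at 1.05 (0.93 to 1.18) were higher too. At least 2-fold higher were 2 of 14 outer membrane and import genes and 2 of 14 regulators, against 5.06% of all genes. In both lists 0 were lower, against 12.4%. Of the 14 regulators, 9 were below 0, and their median was -0.14. The genes named were picked after their values were seen. The 13 citric acid cycle genes were level, at a summed ratio of -0.05 (-0.12 to 0.01).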
